A study of Citrus trifoliata with 2 samples.

Results

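Floral MADS-box genes were examined in the bud transcriptome of trifoliate orange (Citrus trifoliata), a citrus relative used as a rootstock. They were chosen by their closest Swiss-Prot protein. The members are the best hits to APETALA 1 (AP1, Unigene27120_All), to the potato homolog of AGL8 (Unigene12163_All), to SEPALLATA 1 (Unigene23896_All and Unigene24321_All) and to AGL5 (Unigene6983_All), and they make up 5 of 35775 unigenes, the assembled transcript models of the deposited table. The mutant group was the cultivar named precocious trifoliate orange, an early-flowering mutant, and the wild-type group was normal trifoliate orange. Each group had 1 library of poly(A) RNA, made from the terminal bud and the 5 buds after it on spring shoots of 2-year-old trees. All buds were untreated and were sampled once self-pruning, the shedding of the shoot tip, was over and flowers were being initiated. How many trees gave each library, and whether the mutant is 1 clone, is not given in the sources used here.

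MADS-box proteins are transcription factors that bind DNA as dimers and, in flowers, combine into larger complexes that set the identity of each organ. In Arabidopsis, AP1 and its relative FRUITFULL (AGL8) turn a shoot meristem into a floral or inflorescence meristem. SEPALLATA proteins bridge the other floral MADS proteins into complexes, and AGL5 and AGL1, also known as SHATTERPROOF proteins, act in carpels and fruit. A best hit names the nearest listed protein of another species and does not establish that the citrus gene is its ortholog.

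Levels are given as RPKM, the deposited measure of reads divided by unigene length and library total. Expressed in units of 1000, the reads on unigenes were 10037 for the mutant and 9995 for the wild type. A unigene was kept when its RPKM reached 1 in at least 1 library, which left 34255, and all 5 members were kept. It was counted as 2-fold higher or lower when the ratio of RPKM + 1 reached 2 in that direction. With 1 library a group there was no test across trees. Folds of single unigenes come from reads scaled to the library totals. Brackets hold exact 95% Clopper-Pearson intervals of folds, or exact Poisson intervals of levels, and both cover counting error only.

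Of the members, AP1 and AGL8 had the fold intervals that began farthest above 1. AP1 had few reads, and most unigenes numbered near it also had more RPKM in the mutant library, as given below. AP1, which confers floral meristem identity, had 12 reads and 3.95 RPKM (2.04 to 6.89) in the mutant library, against 0 reads in the wild-type library. A count of 0 allows up to 3 reads, which is 0.99 RPKM for this unigene (Unigene27120). Set against those 3 reads, AP1 was higher in mutant buds by at least 3.98-fold before the counting error of its own 12 reads, and the exact interval, which includes that error, began at 2.77. AGL8, a meristem identity gene that in Arabidopsis also shapes the fruit, had 276 reads and 27.6 RPKM (24.4 to 31.1) in the mutant library, against 85 reads and 8.54 RPKM (6.82 to 10.6) in the wild-type library (Unigene12163). It was 3.23-fold higher (2.53 to 4.17), and the level intervals of the libraries did not overlap.

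The SEPALLATA 1 hits had few reads. Unigene23896 had 11 reads and 3.99 RPKM (1.99 to 7.13) in the mutant library, against 3 reads and 1.09 RPKM (0.225 to 3.19) in the wild-type library. Its fold of 3.65 had an interval of 0.965 to 20.4, which included 1. Unigene24321 had 14 reads and 4.05 RPKM (2.22 to 6.80) in the mutant library, against 5 reads and 1.45 RPKM (0.472 to 3.39) in the wild-type library. Its fold of 2.79 had an interval of 0.949 to 9.89, which also included 1. The level intervals of the libraries overlapped for both unigenes. Both are short, 275 and 344 bases, and share 1 Swiss-Prot entry, so they may be pieces of 1 transcript. Their reads together were 25 in the mutant library against 8 in the wild-type library, 3.11-fold higher (1.36 to 7.98), a sum formed after the values had been seen.

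AGL5, of the AGAMOUS group, was the most abundant member and had the smallest fold. It had 721 reads and 132 RPKM (122 to 142) in the mutant library, against 549 reads and 101 RPKM (92.5 to 110) in the wild-type library (Unigene6983). It was 1.31-fold higher (1.17 to 1.46), and its level intervals did not overlap. AGL5 and AGL1 are near-identical relatives in Arabidopsis, and how reads shared between such copies were counted here is not given in the sources used here.

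**Figure D1:**
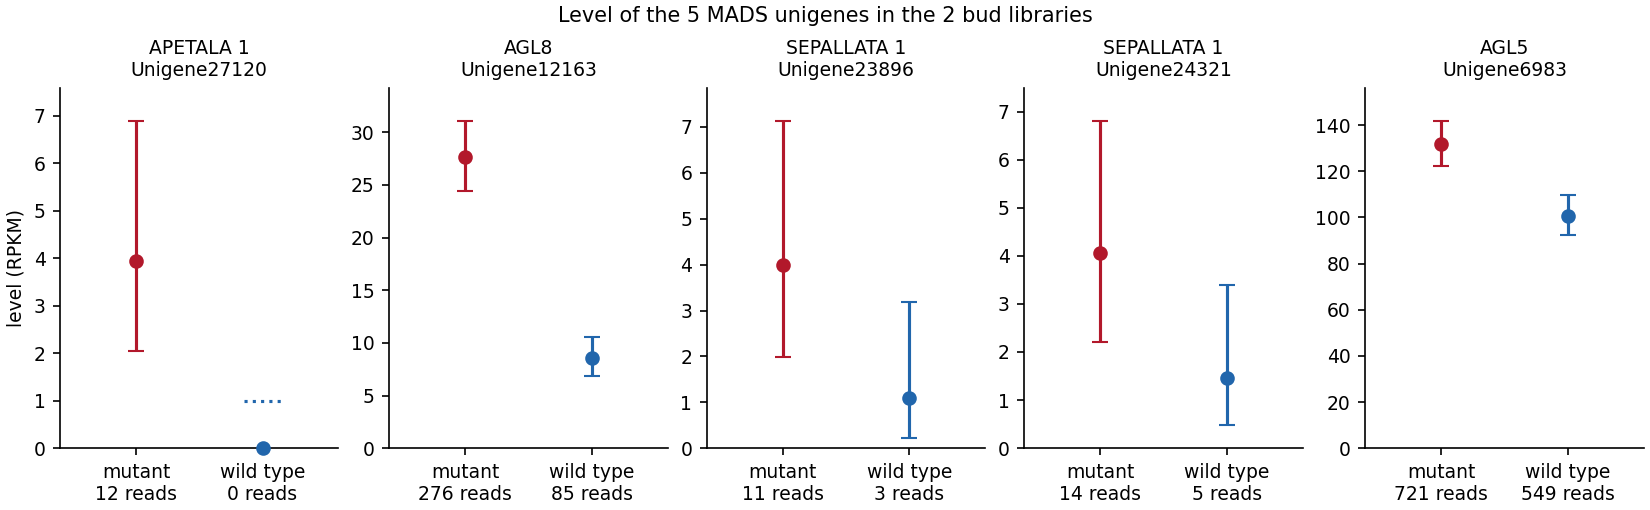
Level of each member in the mutant library (red, left) and the wild-type library (blue, right), in RPKM on its own linear axis, with exact 95% Poisson intervals and reads under each name. Intervals are apart for AGL8 and AGL5 and overlap for both SEPALLATA 1 hits, and AP1 had 0 wild-type reads (the dotted mark is the level of 3 reads, 0.99 RPKM).

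In level per length, the order of the members was the same at its upper end in both libraries, with AGL5 above AGL8 and AGL8 above the other three. In the mutant library the intervals of AP1 and the SEPALLATA 1 hits, at 3.95, 3.99 and 4.05 RPKM, overlapped almost wholly, so these neighbours did not differ beyond counting error. The fold of AGL8 was 2.47 times that of AGL5 (1.88 to 3.27), so these folds differed beyond counting error. Against Unigene23896 and Unigene24321 the same ratio of folds was 0.886 (0.155 to 3.46) and 1.16 (0.317 to 3.53), intervals that leave room for a large difference either way.

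All 5 members had more RPKM in the mutant library, as did 53.8% of the 34255 kept unigenes. At the 2-fold rule 4 of the 5 members were higher, AGL5 being the exception, against 8.61% of all kept unigenes, and none was 2-fold lower, against 5.31%. The count of 4 depended on the scale. It was 1 (AGL8) with a pseudocount of 5 RPKM, and 3 under either other scaling of the libraries, where Unigene24321_All fell just short. Log2 ratios of RPKM + 1 were 2.31 for AP1, 1.58 for AGL8, 1.25 and 1.04 for the SEPALLATA 1 hits and 0.38 for AGL5, beside a median of 0.048 over all kept unigenes. Counted by an interval above 1 instead, 3 members were higher (AP1, AGL8 and AGL5), against 19.8% of all kept unigenes, and none had an interval below 1, against 14.4%.

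These shares depended strongly on where a unigene stood in the numbering of the table. The lengths of consecutive unigenes drop abruptly at several places, which divides the numbers into 8 runs. The runs were found from length alone and were put into 3 sets after their ratios had been seen. In runs 1 to 4 (numbers up to 18223) the kept unigenes had a median log2 ratio of 0.024 and a median of 527 reads in both libraries together. In runs 5 and 6 (numbers 18224 to 28031) the median log2 ratio was 0.66 and the median number of reads was 21. In runs 7 and 8 (numbers from 28032) they were −0.55 and 21. Kept unigenes without a wild-type read numbered 1 in runs 1 to 4, 386 in runs 5 and 6, and 15 in runs 7 and 8. How the numbers were assigned is not given in the sources used here.

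The members fell on both sides of this divide. AGL8 (run 3) and AGL5 (run 2) belong to runs 1 to 4, where 1.83% of 18217 kept unigenes were 2-fold higher. Among the 5151 kept unigenes of those runs with at least 100 and under 500 reads, as AGL8 has, 2.62% were 2-fold higher and 27 (0.524%) had a fold at least as large as that of AGL8. Folds like that of AGL5 were more common, since 6.85% of the 9375 unigenes in those runs with 500 reads or more had a fold at least as large, and 23.2% had an interval above 1. AP1 (run 6) and both SEPALLATA 1 hits (run 5) belong to runs 5 and 6, where 29.3% of 8709 kept unigenes were 2-fold higher and 86.4% had more RPKM in the mutant library. Among the 2610 kept unigenes of runs 5 and 6 with 10 to 20 reads, as these members have, 33.7% were 2-fold higher and 22% had an interval above 1. A count of 0 in the wild-type library, as for AP1, was found in 67 of them (2.57%). The part of the numbering in the ratios of AP1 and the SEPALLATA 1 hits was not tested.

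**Figure D2:**
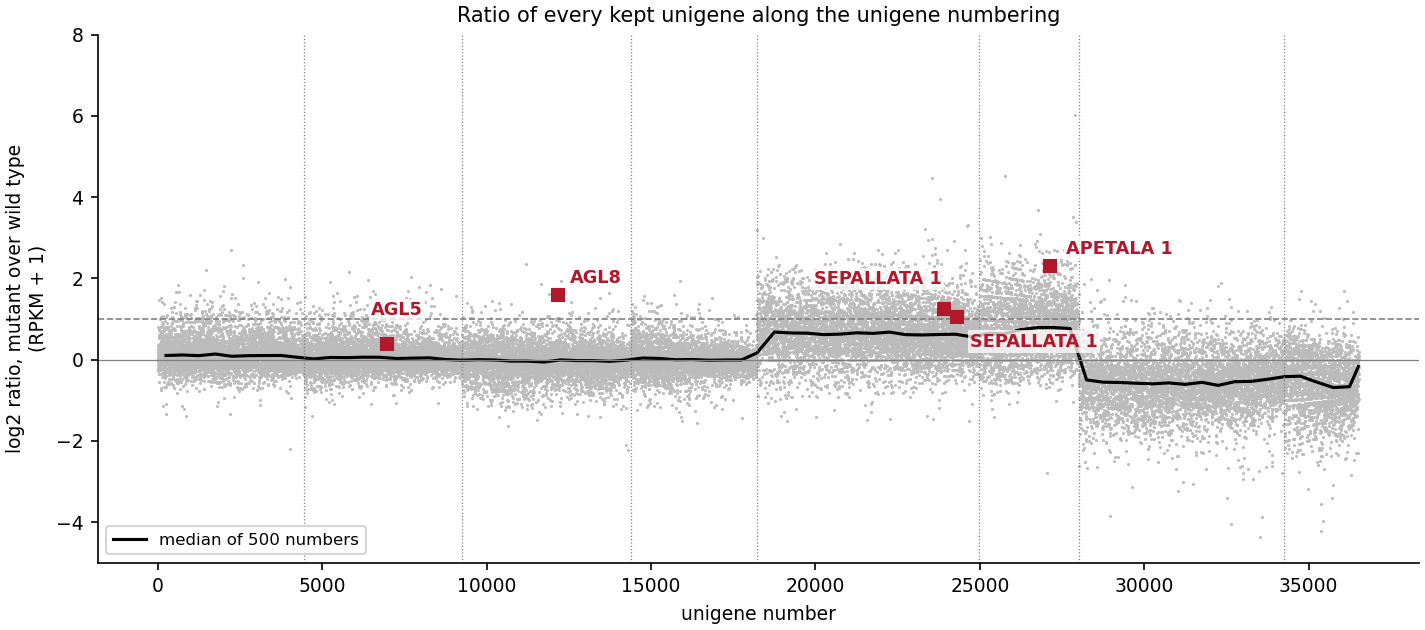
Log2 ratio of RPKM + 1, mutant over wild type, for the 34255 kept unigenes (grey) along the unigene number, with the median of each 500 numbers (black), the ends of the runs (dotted) and the members (red). The median lies near 0 up to number 18223, above 0 up to 28031 and below 0 after it, and AP1 and the SEPALLATA 1 hits lie in the middle stretch.

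**Figure D3:**
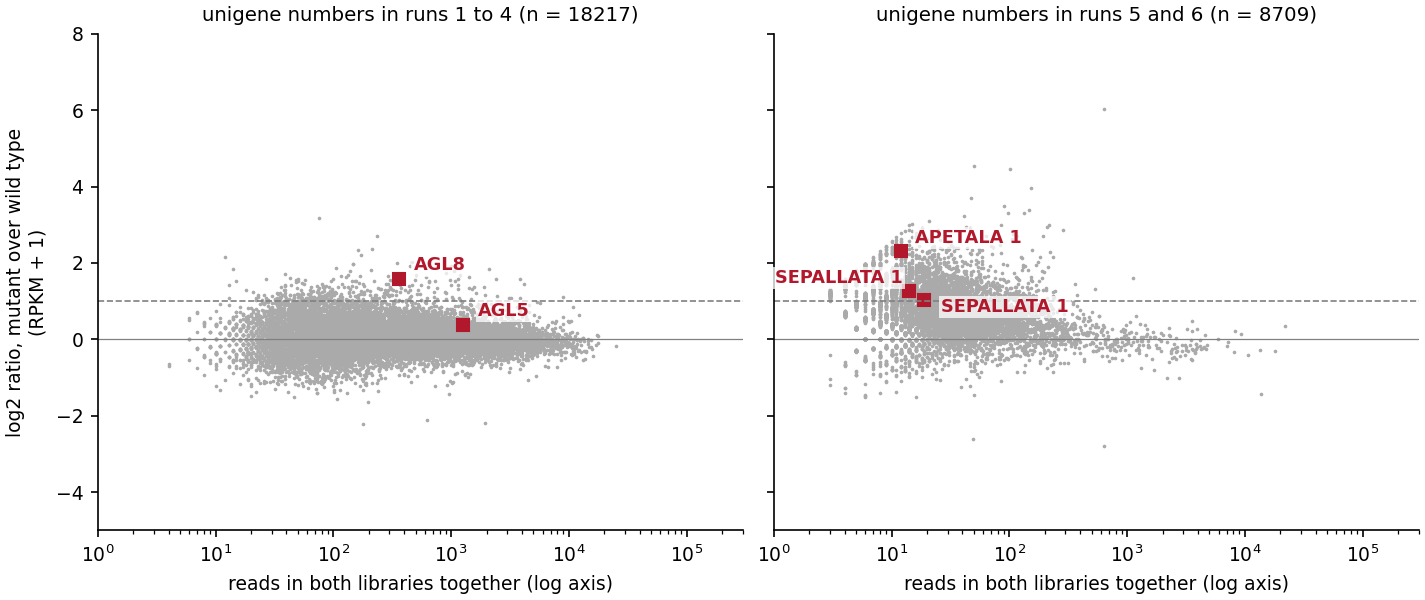
Log2 ratio of RPKM + 1 against the reads of both libraries together (log axis) for kept unigenes of runs 1 to 4 (left) and of runs 5 and 6 (right), with members in red and the 2-fold level dashed. AGL8 stands at the upper edge of the unigenes with as many reads, whereas AP1 and the SEPALLATA 1 hits lie among many unigenes of 10 to 20 reads above the dashed line.

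The 5 members are 5 of 22 unigenes whose Swiss-Prot name is that of a MADS-box protein. The other 17 included 1 further member of the AP1 and FRUITFULL subfamily and 2 of the SEPALLATA subfamily. The unigene closest to rice MADS18, a relative of FRUITFULL in cereals, had 377 reads and 54.4 RPKM in the mutant library, against 180 reads and 26.1 RPKM in the wild-type library. It was 2.09-fold higher (1.74 to 2.51, Unigene12215) and lies in run 3, next to AGL8. All 3 unigenes of this subfamily thus passed the 2-fold rule, and those in runs 1 to 4, AGL8 and MADS18, did so where 1.83% of kept unigenes passed. MADS18, with a log2 ratio of 1.03, was just past the rule and missed it under either other scaling (0.98 and 0.99) and with a pseudocount of 5 (0.93). Reads summed over the 3 were 665 in the mutant library against 265 in the wild-type library, 2.50-fold higher (2.16 to 2.89), and 2.45-fold (2.12 to 2.84) without AP1. Subfamilies were assigned to the unigenes after their values had been seen.

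Of the SEPALLATA relatives, the unigene closest to petunia AGL9, a SEPALLATA protein, had 9 reads in the mutant library against 5 in the wild-type library (1.79-fold, 0.539 to 6.81, Unigene24167). The unigene closest to carnation CMB1, of the same subfamily, had 23 reads against 13 (1.76-fold, 0.856 to 3.79, Unigene5505). All 4 SEPALLATA unigenes had a fold above 1, and no single interval excluded 1. Summed, they had 57 mutant reads against 26 wild-type reads, 2.18-fold higher (1.35 to 3.62). Of these 4, CMB1 alone lies in runs 1 to 4.

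AGL1, the AGAMOUS-group relative of AGL5, had 187 reads and 88.3 RPKM in the mutant library, against 157 reads and 74.4 RPKM in the wild-type library (1.19-fold, 0.954 to 1.48, Unigene34541). This unigene is 211 bases long with an E-value of 9e-09, and it lies in run 8, where the median log2 ratio was −0.54. Petal and stamen identity genes went both ways. The DEFICIENS hit, of the snapdragon petal and stamen gene, had 14 reads in the mutant library against 35 in the wild-type library (2.51-fold lower, 1.32 to 5.05, Unigene34186), and it lies in run 7, where 22.2% of kept unigenes were 2-fold lower. With its log2 ratio of −0.98 it just missed the 2-fold rule. The hit to PMADS 1, a petunia relative of DEFICIENS, had 319 reads against 190 (1.67-fold higher, 1.39 to 2.01, Unigene4356, run 1). None of the 22 MADS-box unigenes was a best hit to AGAMOUS itself, PISTILLATA or APETALA 3, names that the word search covered. The DEFICIENS and PMADS 1 hits were placed in the shared subfamily of DEFICIENS and APETALA 3.

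The remaining MADS-box unigenes had folds closer to 1 than that of MADS18, except SOC1 Unigene3347, which had few reads. Those related to the B-sister proteins of ovules were GGM13 at 2427 reads in the mutant library against 2377 in the wild-type library (1.02-fold, 0.960 to 1.08, Unigene9295) and ZMM17 at 400 against 316 (1.26-fold, 1.08 to 1.47, Unigene8625). Flowering-time relatives included AGL19, with 170 against 135 reads (Unigene13701) and 147 against 137 (Unigene13903). The SOC1 hits, of an integrator of flowering signals, had 22 against 8 reads (2.74-fold, 1.17 to 7.11, Unigene3347), 8 against 6 (Unigene1570), 6 against 3 (Unigene19004) and 4 against 5 (Unigene19612). SVP, a repressor of flowering, had 152 reads in the mutant library against 93 in the wild-type library (1.63-fold, 1.25 to 2.13, Unigene1579). JOINTLESS, its tomato relative that forms the joint of the fruit stalk, had 460 against 397 (1.15-fold, 1.01 to 1.32, Unigene12495). The hit to rice MADS27 had 22 against 31 (1.42-fold lower, 0.793 to 2.56, Unigene217).

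Of the 17 MADS-box unigenes beside the members, 2 were 2-fold higher (MADS18 and SOC1 Unigene3347) and 0 were 2-fold lower. Over all kept unigenes the shares were 8.61% and 5.31%. A positive log2 ratio was found in 14 of the 17, against 53.8% of all kept unigenes. The median log2 ratio of the 17 was 0.31, beside 0.048 over all kept unigenes. In runs 1 to 4 alone, 12 of them had a median of 0.31, beside 0.024, and 6 had an interval above 1, against 21.2% of the kept unigenes there. The family list includes repressors such as SVP as well as promoters of flowering, so its median has no direction of flowering.

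**Figure D4:**
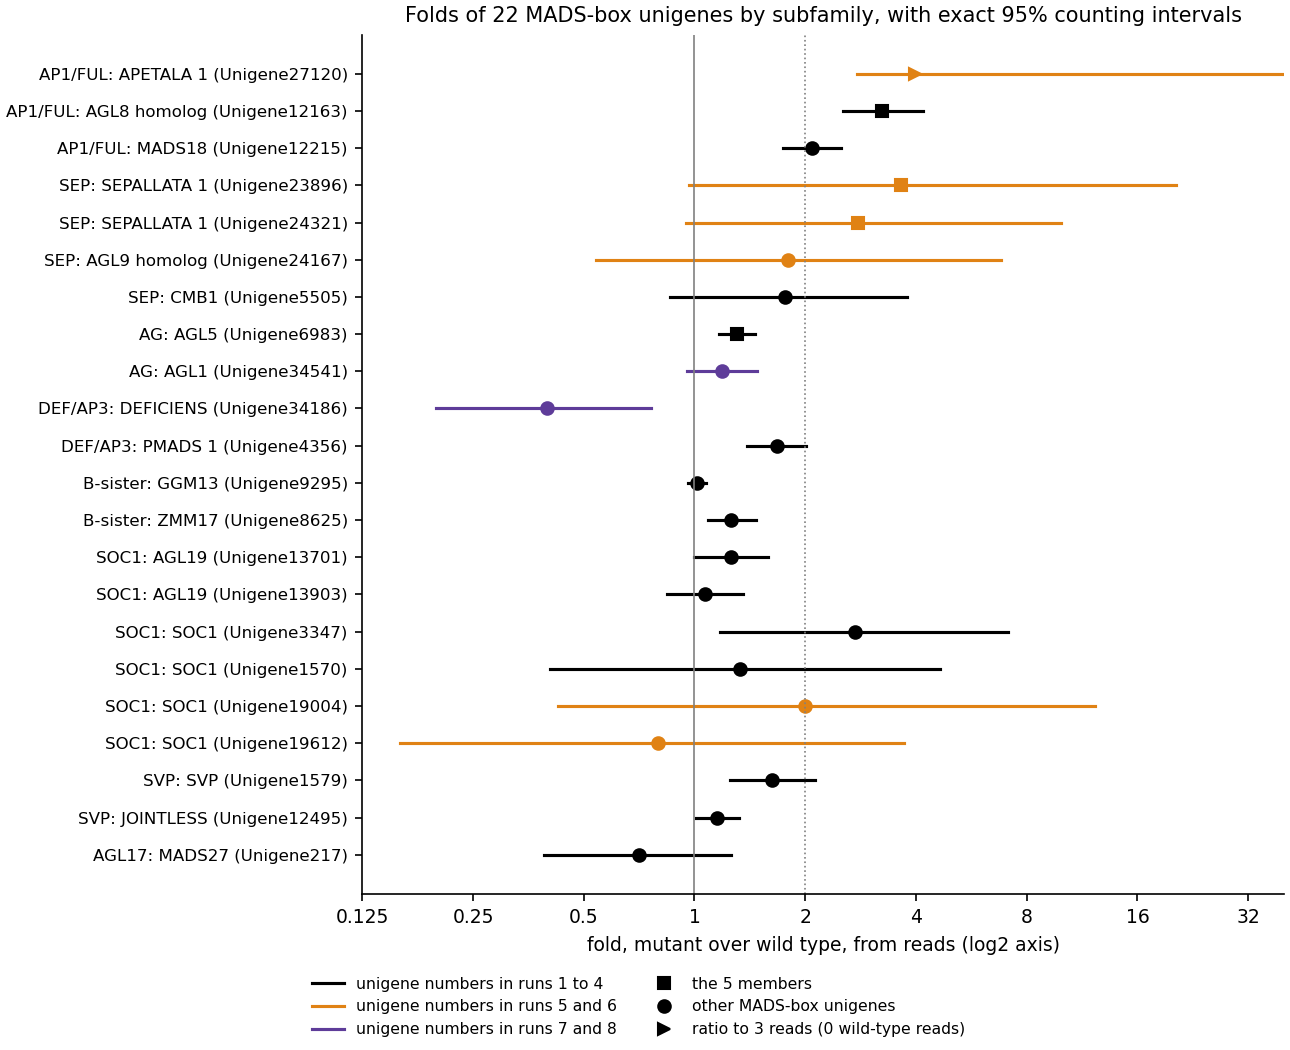
Fold, mutant over wild type, of all 22 MADS-box unigenes on a log2 axis, ordered by subfamily, with exact 95% counting intervals. Squares are members, circles other MADS-box unigenes, the arrowhead the ratio of AP1 to the floor of 3 reads, whose interval runs past the right edge, and colour the set of unigene numbers. AGL8 and MADS18 have folds of 3.23 and 2.09 with short intervals, SOC1 Unigene3347_All has 2.74 with a long one, and DEFICIENS is below 1.

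Genes that act upstream of AP1 in Arabidopsis were read on a list of 23 unigenes. Of these, 21 were kept, with a median log2 ratio of −0.045, beside 0.048 over all kept unigenes. At the 2-fold rule 1 was higher and 0 were lower, against 8.61% and 5.31% of all kept unigenes. By intervals 2 were above 1 and 6 below 1, against 19.8% and 14.4%, and the 6 were among the 14 kept in runs 1 to 4, where 16.2% of kept unigenes had an interval below 1. That share was 23.1% among those with 500 reads or more and 11.3% among those with 100 to under 500. The unigene 2-fold higher was FLOWERING LOCUS T (FT), the leaf-made signal that acts with FD on the AP1 gene, at 43 reads in the mutant library against 12 in the wild-type library (3.57-fold, 1.85 to 7.43, Unigene27861). Like AP1 it lies in run 6, where 34.4% of kept unigenes were 2-fold higher. FD itself had 81 against 79 reads (1.02-fold, 0.740 to 1.41, Unigene12556). The 4 hits to APETALA 2, which restrains flowering and AGAMOUS in Arabidopsis, went both ways. Unigene12861 was 1.56-fold lower in the mutant library (1.28 to 1.90, 170 against 264 reads), and Unigene7234_All had 273 reads against 415, a fold of 0.655 (0.560 to 0.765). Unigene20726_All had 72 reads in the mutant library against 50 in the wild-type library (1.43-fold, 0.986 to 2.10), and Unigene33328_All had 10 against 6. Among the SPL factors, some of which activate AP1 and FRUITFULL in Arabidopsis, the SPL6 hit Unigene9909 was 2.03-fold lower (1.46 to 2.84, 56 against 113 reads). Another SPL6 hit had 9 reads against 20 (2.23-fold lower, 0.971 to 5.57, Unigene30892), and the remaining SPL6 hit, in run 5, had 60 against 39 (1.53-fold higher, 1.01 to 2.36, Unigene19849_All). The SPL unigenes with most reads, SPL14 and SPL12, had 1684 against 1828 (1.09-fold lower, 1.02 to 1.17, Unigene9906) and 1156 against 1400 (1.22-fold lower, 1.12 to 1.32, Unigene3656). Hits to SPL4 and SPL9 had 162 reads against 161 (Unigene17573_All) and 24 against 19 (Unigene23299_All). Those to SPL2 went both ways, with 141 against 109 (Unigene11760_All) and 27 against 34 (Unigene15844_All). No interval of these SPL4, SPL9 and SPL2 hits excluded 1. Other kept SPL hits had folds of 0.629 to 1.55. The words searched for this list included LEAFY and TERMINAL FLOWER, and none of the 23 unigenes was a best hit to either.

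The list of co-factors and floral partners of the MADS proteins leaned to lower levels in the mutant library, by small folds. All its hits to BEL1 and BEL1-like homeodomain proteins had folds below 1, and most of the intervals below 1 were theirs. Several of these hits share 1 Swiss-Prot entry, BLH1, so they may be pieces of fewer transcripts. The hits to other proteins on the list went both ways. Of 34 unigenes, 33 were kept, with a median log2 ratio of −0.11, and 9 had a positive one, against 53.8% of all kept unigenes. At the 2-fold rule 1 was higher and 0 were lower, against 8.61% and 5.31% of all kept unigenes. By intervals 6 were above 1 and 12 below 1, against 19.8% and 14.4%. In runs 1 to 4, 3 of 24 were above 1 and 11 below 1, against 21.2% and 16.2%. Most of the 24 had 500 reads or more, and among all such unigenes of those runs the shares were 23.2% and 23.1%. YABBY 1, which marks the lower side of leaves and floral organs, had hits with 26 reads in the mutant library against 9 in the wild-type library (2.88-fold, 1.31 to 6.98, Unigene27463) and 38 against 18 (2.10-fold, 1.17 to 3.91, Unigene2055). Its other hits had 9 reads against 10 (Unigene10320_All) and 2 against 6 (Unigene31227_All). The YABBY 2 hit had 146 reads against 212, a fold of 0.686 (0.552 to 0.851, Unigene13917_All). The YABBY 5 hit had 47 against 56 (Unigene16704_All). SEUSS, a corepressor recruited by AP1 and SEPALLATA 3 in Arabidopsis, had 2518 against 2675 reads (1.07-fold lower, 1.01 to 1.13, Unigene12724), and its other hits had 1876 against 1970 (Unigene11629_All) and 2 against 6 (Unigene30815). LEUNIG, another corepressor, had hits with 32 reads against 8 (3.98-fold, 1.80 to 10.0, Unigene23461_All) and 85 against 42 (2.02-fold, 1.38 to 2.99, Unigene24422_All). Both lie in run 5 and fell short of the 2-fold rule. The other LEUNIG hits had folds of 0.944 to 1.30. A hit to BEL1, an ovule identity homeobox protein, was 2.11-fold lower (1.43 to 3.15, 40 against 84 reads, Unigene33612), and another had 142 reads against 155 (Unigene21259_All). The BEL1-like protein BLH1 had 2945 against 3156 reads (1.08-fold lower, 1.02 to 1.13, Unigene16581), and its other hits had folds of 0.737 to 0.947.

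The labelled tissue was checked on markers of the shoot apex. Of 31 bud and meristem unigenes, all 31 were read in mutant buds and 30 in wild-type buds, with 4756 and 4476 reads in sum. At the 2-fold rule 1 of them was higher and 3 were lower, beside 8.61% and 5.31% over all kept unigenes. The named markers went both ways. SHOOT MERISTEMLESS, which maintains the shoot meristem, had 136 reads in the mutant library against 163 in the wild-type library (Unigene27959) and 1 against 8 (Unigene33575). CUP-SHAPED COTYLEDON 1 had 58 against 36, with an interval above 1 (Unigene11444). Hits to CUP-SHAPED COTYLEDON 2 had 56 against 28 (1.99-fold, 1.24 to 3.26, Unigene24773), 7 against 12 (Unigene32691) and 6 against 22 (3.68-fold lower, 1.45 to 11.1, Unigene33405). Unigene24773 lies in run 5, where 26.7% of kept unigenes were 2-fold higher, and Unigene33405 in run 7, where 22.2% were 2-fold lower. LATERAL ORGAN BOUNDARIES had 10 against 9 (Unigene9417). Summed reads of 47 leaf photosynthesis unigenes were 88073 in the mutant library against 93131 in the wild-type library, and those of 17 unigenes named for pollen or anthers were 6146 against 5363. The 14 xylem and laccase unigenes had 3789 reads in the mutant library against 1564 in the wild-type library, with 5 of them 2-fold higher and 1 lower, beside 8.61% and 5.31% over all kept unigenes. The part of the cell mixture in the folds of the members was not tested, and in whole buds more cells of a type and more RNA per cell cannot be told apart.

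The annotation of the members has limits. Their unigenes are 275 to 996 bases long, beside a median of 547 over all unigenes, with AGL8 the longest. E-values ranged from 1e-74 for AGL5 and 1e-69 for AGL8 through 8e-40 for AP1 and 4e-31 for Unigene23896 to 3e-09 for Unigene24321, the weakest match. In the other annotation columns 4 of the 5 carried the orthology group of animal MEF2 proteins, the MADS-box factors of muscle, and 3 had an animal MEF2 protein as best hit in the larger collection, which names the DNA-binding family but no plant gene.

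The annotated unigenes most like AGL8 in log2(RPKM + 1) over the 2 libraries were the soybean BRU1 hit, a xyloglucan-remodelling enzyme (distance 0.24, Unigene520), a bean glycine-rich cell wall protein (0.25, Unigene3049) and a tomato proline-rich protein (0.25, Unigene8126). Those most like AGL5 were a latex allergen hit (0.028, Unigene16329), coatomer subunit gamma-2 (0.029, Unigene7631) and the ribosomal protein L24 (0.030, Unigene6236). With 2 libraries, likeness here means only a similar level in each of them.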

How the data were processed

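Poly(A) RNA was made into random-primed cDNA from fragments of about 200 bases, per the labels' protocols. The deposited table gives raw read counts for each unigene and library, per the file headers, and the library totals stated there equalled the column sums. It also gives RPKM, per the file headers. These were recomputed from counts, lengths and totals, and 100% matched within 1e-04. Unigene length and the E-value of the Swiss-Prot hit are deposited as columns of another kind (other). Assembler, aligner, counter, strand and genome build are left unstated by the sources used here. The table carries no genome positions or sequences.

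The members and lists were chosen with earlier results of these data known. Lists were matched by words in the Swiss-Prot name, and 1 accidental match (ULTRAPETALA 1, for APETALA 1) was removed after it had been seen. Named are all members and MADS-box unigenes, FT and FD, and from both pathway lists the 4 with the largest absolute ratio and the 2 with the most reads. Other names were chosen after their values were seen. The pseudocount of 1 understates folds of low unigenes. A count of 0 was set to a floor of 3 reads. Runs of unigene numbers end where the median log10 length of the next 200 unigenes lies at least 0.4 below that of the 200 before. No count model was fitted, since each group has 1 library. The interval and run steps were tested on simulated data. Python 3.11.15, pandas 2.3.3, NumPy 2.4.6, SciPy 1.17.1 and matplotlib 3.10.9 were used.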

Additional observations from a re-analysis of the deposited data

How the results depend on the processing

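No paired analysis was possible because each group has 1 library, and for the same reason no library could be left out. Of 157 values recomputed, 111 stayed within their interval or within 1.5 times, and 46 moved. The fold of AP1, with 0 wild-type reads, was 40.5 with a pseudocount of 0.1 and 1.79 with 5, and that of AGL8 was 2.41 with 5. With a pseudocount of 5 the SEPALLATA 1 hits, at 1.48 and 1.40, stayed within their long intervals but were under 2-fold, as AP1 was, so 1 of the 5 members passed. Centring on the median ratio (a shift of 0.048, log2) and trimmed-mean scaling (0.044) left all 5 folds within their intervals, while Unigene24321_All and MADS18 missed the 2-fold rule under both. For the other MADS-box unigenes (2 higher, 0 lower) they were 0 higher with a pseudocount of 5 or a 4-fold threshold, 1 higher with at least 100 reads, 1 higher and 1 lower under either scaling, 1 lower with a pseudocount of 0.1, and 6 higher and 1 lower by intervals. For the upstream list (1 higher, 0 lower) they were 0 higher with a pseudocount of 5, a 4-fold threshold, at least 100 reads or runs 1 to 4, 1 lower with a pseudocount of 0.1, and 2 higher and 6 lower by intervals. For the co-factor list (1 higher, 0 lower) they were 0 higher with a pseudocount of 5, a 4-fold threshold, the longest unigene per entry, at least 100 reads or runs 1 to 4, 3 higher and 2 lower with a pseudocount of 0.1, and 6 higher and 12 lower by intervals. Over all unigenes (2948 higher, 1818 lower, median 0.048) the counts were 4579 and 3165 with a pseudocount of 0.1, 280 and 92 with 5, 1328 and 597 with a minimum RPKM of 5, 249 and 138 at 4-fold, 6768 and 4916 by intervals, and 334 and 99 in runs 1 to 4. Their median was 0.037 with a pseudocount of 5, 0 when centred, 0.0032 under trimmed-mean scaling and 0.024 in runs 1 to 4. The restriction to runs 1 to 4 and the counts of members were added after the data had been seen. Depth limits AP1 and the SEPALLATA 1 hits, which had 12 to 19 reads in both libraries together.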
